A study of Mus musculus with 3 samples.

Results

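The genes described here are 10 Wnt ligands, *Wnt2*, *Wnt3*, *Wnt4*, *Wnt5a*, *Wnt6*, *Wnt7b*, *Wnt9a*, *Wnt10a*, *Wnt10b* and *Wnt11*, and the question was which cells of developing mouse back skin were their source. They were taken by symbol as 10 of the 19165 genes in the deposited expression table, and each had UMIs (unique molecular identifiers, one per captured transcript) in all 3 libraries. Single-cell suspensions of dorsal skin from male C57/BL6 mice were profiled by droplet-based 3' single-cell RNA-seq at E13.5, E16.5 and P0. These are the stages at which the study places hair follicle induction, organogenesis and cytodifferentiation. Each stage was 1 library made from the pooled skin of several animals, the fetal skin was dissociated with trypsin/EDTA and the P0 skin with collagenase IV, and no allele or other treatment separated the groups. There was thus no replicate of any stage, no test was possible, and every interval below is a 95% Poisson interval (for a level) or exact binomial interval (for a share) that covers counting error alone.

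Wnt proteins are secreted, lipid-modified ligands that act over short distances on Frizzled receptors with the co-receptors Lrp5 and Lrp6, which stabilizes β-catenin, or on receptors such as Ror2 and Ryk in β-catenin-independent signalling. Porcn attaches the lipid and Wls carries the ligand to the cell surface, so a cell that makes a Wnt needs both. In skin, Wnt signals pass between epidermis and dermis, and β-catenin signalling is required for the hair placode and for the dermal condensate (DC) beneath it, the precursor of the dermal papilla (DP).

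The libraries held 5962 cells and 53334740 UMIs at E13.5, 5208 cells and 66239195 UMIs at E16.5, and 5065 cells and 46599806 UMIs at P0, with medians of 7066.5, 11021 and 6797 UMIs per cell. Cells were clustered without the ligands or any other listed Wnt pathway gene and named by markers. Epithelial-like cells numbered 207, 873 and 1472, and dermal-like cells 2348, 3288 and 2675, at E13.5, E16.5 and P0. The summed level of the 9 epithelial markers (*Krt14*, *Krt5*, *Epcam* and others) in dermal-like cells was 0.873%, 3.08% and 3.06% of that in epithelial-like cells, and the 10 dermal markers (*Col1a1*, *Lum*, *Pdgfra* and others) in epithelial-like cells stood at 9.10%, 7.57% and 3.14% of their dermal-like level, with no marker of either list at 0 UMIs. Sub-clusters that carried markers of both compartments (313, 81 and 107 epithelial and, at P0, 32 dermal cells) were set apart as mixed.

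In the GENCODE annotation of GRCm38 the ligands lie on 7 chromosomes. *Wnt6* (chr1:74771892-74785322) and *Wnt10a* (chr1:74791516-74804179) are neighbours on the plus strand, 6194 bases apart. *Wnt3* (chr11:103774150-103817957, plus strand) and *Wnt9a* (chr11:59306928-59333552, plus strand) share a chromosome, as do *Wnt7b* (chr15:85535437-85582473, minus strand) and *Wnt10b* (chr15:98770712-98778150, minus strand), 44440598 and 13188239 bases apart. *Wnt2* (chr6:17988940-18030585, minus strand), *Wnt4* (chr4:137277489-137299726, plus strand), *Wnt5a* (chr14:28504750-28527448, plus strand) and *Wnt11* (chr7:98835112-98855195, plus strand) stand alone.

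Because the ligands divided into an epithelial and a dermal group, the 250 bases before the start of a member of each are shown, read 5′ to 3′ on the gene's strand from RefSeq promoters of GRCm38.p6. *Wnt6* was the most abundant epithelial ligand (chr1:74771642-74771891, plus strand), *Wnt10b* an epithelial ligand with a higher level in placode or matrix cells than in the other epithelial-like cells (chr15:98778151-98778400, minus strand), and *Wnt11* a dermal ligand (chr7:98834862-98835111, plus strand). Capitals mark CTTTG or its reverse complement CAAAG, the core of the motif bound by TCF/LEF factors, the nuclear partners of β-catenin.
Wnt6: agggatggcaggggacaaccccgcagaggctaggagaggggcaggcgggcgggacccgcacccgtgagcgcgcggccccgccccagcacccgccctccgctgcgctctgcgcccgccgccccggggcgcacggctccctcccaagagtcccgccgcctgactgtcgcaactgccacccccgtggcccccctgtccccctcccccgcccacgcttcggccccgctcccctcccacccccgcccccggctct
Wnt10b: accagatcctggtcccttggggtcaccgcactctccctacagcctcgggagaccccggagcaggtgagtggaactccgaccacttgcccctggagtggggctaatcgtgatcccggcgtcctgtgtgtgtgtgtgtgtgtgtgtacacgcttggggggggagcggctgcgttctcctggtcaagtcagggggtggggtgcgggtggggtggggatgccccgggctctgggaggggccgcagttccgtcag
Wnt11: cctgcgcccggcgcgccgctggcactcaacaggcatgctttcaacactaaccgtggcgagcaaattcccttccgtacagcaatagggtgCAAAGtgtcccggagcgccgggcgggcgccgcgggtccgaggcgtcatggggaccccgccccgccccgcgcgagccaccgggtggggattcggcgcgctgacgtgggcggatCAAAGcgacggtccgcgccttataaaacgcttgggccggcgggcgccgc
This *Wnt11* window held 2 cores, and those of *Wnt6* and *Wnt10b* held none. A second *Wnt11* promoter window (chr7:98838595-98838844, plus strand) held 0 cores and 16 CpG. Of the 8 windows found for 7 of the ligands, 2 held a core, the other being that of *Wnt3*, whereas 48.6% of all 32851 promoter windows of this length did. The windows shown held more CpG than most, with 28 in *Wnt6*, 14 in *Wnt10b* and 37 in *Wnt11* against a median of 6 over all windows. A match of these letters is a description and not a binding site, and *Wnt5a*, *Wnt7b* and *Wnt10a* were not matched.

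**Figure D1:**
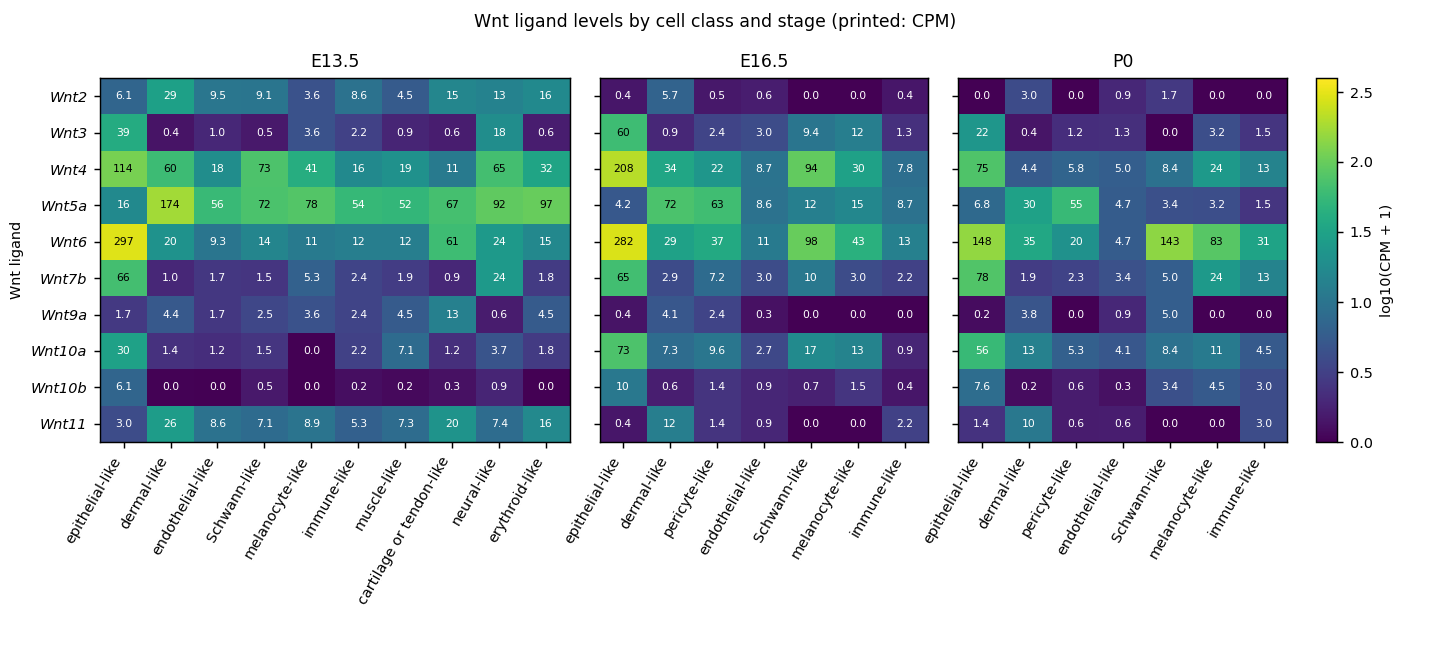
Level of each Wnt ligand in each named cell class at E13.5, E16.5 and P0, in UMIs per 1000000 UMIs of the class (CPM, printed in each cell and coloured as log10(CPM + 1)). Epithelial-like cells hold the highest *Wnt6* value at each stage (297, 282 and 148 CPM), and dermal-like cells hold the highest *Wnt5a* value at E13.5 (174 CPM) and E16.5 (71.6 CPM) but not at P0.

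The level of *Wnt3*, *Wnt4*, *Wnt6*, *Wnt7b*, *Wnt10a* and *Wnt10b* was higher in epithelial-like cells, and that of *Wnt2*, *Wnt5a*, *Wnt9a* and *Wnt11* in dermal-like cells. The same side was higher in value at all 3 stages, but for *Wnt9a* at E13.5 the intervals of both compartments overlapped. Levels are in CPM, a gene's share of its group's UMIs times 1000000. A ligand was called where log2(CPM + 10) differed by at least 1, that is 2-fold, among genes with at least 50 UMIs in the groups compared. Differences on this scale understate those of low genes. At E13.5, 4 ligands (*Wnt3*, *Wnt6*, *Wnt7b* and *Wnt10a*) were called higher in epithelial-like cells, where 4.94% of all 11888 genes compared were. *Wnt4* joined them at E16.5 and P0 to give 5, against 4.67% and 5.38% of all genes. In the dermal direction, 3 ligands (*Wnt2*, *Wnt5a*, *Wnt11*) were called at E13.5, 2 (*Wnt5a*, *Wnt11*) at E16.5 and 1 (*Wnt5a*) at P0, where 7.6%, 7.83% and 7.93% of all genes were called. With 1 added to CPM in place of 10, the dermal count was 4 at E16.5 and 4 at P0. Both counts were lower than reported with each cell assigned by its own marker score. The median difference over the ligands compared, epithelial-like minus dermal-like, was 0.82, 1.59 and 1.16 log2 units, beside -0.04, -0.05 and 0.05 over all genes.

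*Wnt6*, a ligand of early surface ectoderm, was the most abundant of the 10 in epithelial-like cells at every stage. It stood at 297 CPM (275 to 320) at E13.5, 282 CPM (273 to 291) at E16.5 and 148 CPM (143 to 154) at P0. In dermal-like cells it was 20.3, 29.4 and 34.9 CPM, so the log2 difference was 3.34 (3.20 to 3.48), 2.89 (2.81 to 2.97) and 1.82 (1.71 to 1.92). The compartments lay closer at P0 than at E13.5, with a stage difference (P0 minus E13.5) of -0.96 log2 units in epithelial-like and 0.57 in dermal-like cells. At least 1 *Wnt6* UMI was seen in 80.2%, 88.8% and 66.2% of epithelial-like cells. After each cell was thinned to 3500 UMIs, which left out 1 cell of the data set, the shares were 54.6%, 58.5% and 37.1%. Endothelial-like cells, in which *Wnt6* stood at 9.28, 10.8 and 4.69 CPM, gave 3.76%, 3.42% and 1.5% after thinning, at median depths of 7626, 16540 and 9713 UMIs against 9877, 13116 and 9159 in epithelial-like cells.

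*Wnt4*, known for its roles in the female reproductive tract and kidney, differed most between stages in its balance of sources. At E13.5 its level was 114 CPM (101 to 129) in epithelial-like and 60.3 CPM (57.1 to 63.6) in dermal-like cells, a log2 difference of 0.82 that was not called. At E16.5 the levels were 208 CPM (201 to 216) and 33.9 CPM (32.1 to 35.9), and at P0 75.0 CPM (71.1 to 79.0) and 4.41 CPM (3.49 to 5.50). In dermal-like cells P0 minus E13.5 was -2.29 log2 units (-2.40 to -2.16), and the difference between the compartments was 2.31 at E16.5 and 2.56 at P0. The dermal *Wnt4* at E13.5 was 52.7% of the epithelial level in cells whose epithelial markers stood at 0.873%.

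*Wnt7b* and *Wnt3*, both β-catenin ligands in many tissues, were at or below 3 CPM in dermal-like cells. *Wnt7b* stood at 65.9, 64.6 and 77.6 CPM in epithelial-like cells and at 0.958, 2.92 and 1.90 CPM in dermal-like cells, a ratio of 68.8, 22.1 and 40.9. *Wnt3* stood at 39.0, 60.3 and 22.1 CPM in epithelial-like cells and at 0.365, 0.947 and 0.391 CPM in dermal-like cells, from 8, 35 and 7 UMIs, a ratio of 107, 63.7 and 56.6. The dermal levels of both were 0.935% to 4.52% of the epithelial ones, in cells whose epithelial markers stood at 0.873% to 3.08%, and the part that epithelial RNA had in them was not tested. Between E16.5 and P0 *Wnt7b* in epithelial-like cells differed by 0.23 log2 units (0.12 to 0.34) and *Wnt3* by -1.13.

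*Wnt10a*, a ligand needed for teeth, hair and other ectodermal organs, stood at 29.9, 73.4 and 56.1 CPM in epithelial-like cells and at 1.37, 7.25 and 12.8 CPM in dermal-like cells. The differences were 1.81, 2.27 and 1.53 log2 units, and the dermal-like level was higher at each later stage. *Wnt10b*, a ligand of early hair placodes, was low: 6.07, 10.0 and 7.57 CPM in epithelial-like cells from 14, 135 and 144 UMIs, and 1, 24 and 4 UMIs in dermal-like cells. At E13.5 *Wnt10b* had too few UMIs to be compared, and at E16.5 and P0 its differences of 0.91 (0.78 to 1.04) and 0.78 (0.67 to 0.89) were under 2-fold on the scale with 10 added, although the ratio of its levels was 15.4 and 33.9.

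The dermal side was led by *Wnt5a*, the main β-catenin-independent ligand and a partner of Ror2. It stood at 174 CPM (169 to 180), 71.6 CPM (68.9 to 74.4) and 30.1 CPM (27.6 to 32.8) in dermal-like cells at E13.5, E16.5 and P0, and at 16.0, 4.23 and 6.78 CPM in epithelial-like cells. The difference was -2.82, -2.52 and -1.26 log2 units, and the dermal-like level differed by -1.18 log2 units from E13.5 to E16.5 (-1.24 to -1.11) and by -1.02 from E16.5 to P0 (-1.13 to -0.92). At P0 the difference between the compartments was -0.52 when each cell was assigned by its own marker score, and was not called. A *Wnt5a* UMI was seen in 67.5%, 45.5% and 11.7% of dermal-like cells, or 42.5%, 20.1% and 6.92% after thinning, against 5.80%, 1.37% and 1.70% of thinned epithelial-like cells.

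*Wnt2* and *Wnt11* followed at E13.5 with levels that could not be told apart in dermal-like cells, 28.8 CPM (26.6 to 31.2) and 26.5 CPM (24.4 to 28.7). *Wnt2*, best known from lung and endothelium, stood at 5.71 and then 2.96 CPM at the later stages. *Wnt11*, a β-catenin-independent ligand of cell movements, stood at 11.8 and then 10.1 CPM, with overlapping intervals. Its difference between the compartments was -1.49 at E13.5 and -1.06 at E16.5, and both were within 2-fold (-0.99) with mixed cells kept, as was that of E16.5 (-0.78) with each cell assigned by its own marker score. In epithelial-like cells *Wnt2* had 14, 6 and 0 UMIs, the last allowing 0.158 CPM at 3 UMIs, and *Wnt11* had 7, 6 and 27. *Wnt9a*, a ligand of forming joints, stood at 4.38, 4.09 and 3.80 CPM in dermal-like cells, with intervals that overlapped between stages, and its differences of -0.29, -0.44 and -0.43 were not called. At E13.5 its dermal-like interval (3.55 to 5.35 CPM) overlapped that of epithelial-like cells, 1.73 CPM (0.472 to 4.44).

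**Figure D2:**
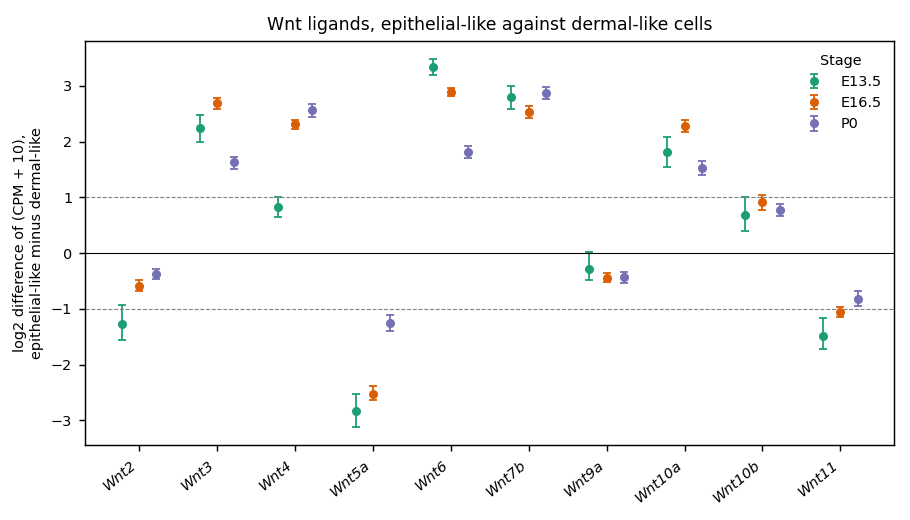
Difference in log2(CPM + 10) between epithelial-like and dermal-like cells for each ligand at E13.5, E16.5 and P0, with 95% counting intervals and dashed lines at the 2-fold limit. *Wnt3*, *Wnt6*, *Wnt7b* and *Wnt10a* lie above the upper line at each stage, *Wnt5a* lies below the lower line at each stage, and *Wnt4* crosses the upper line between E13.5 (0.82) and E16.5 (2.31).

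Within each compartment the ligands could be ordered, because 3' UMI counts do not grow with transcript length, although capture may differ between genes. In epithelial-like cells at E13.5 the order of levels was *Wnt6*, *Wnt4*, *Wnt7b*, *Wnt3*, *Wnt10a*, and the intervals of *Wnt3* and *Wnt10a* overlapped. At E16.5 *Wnt10a*, *Wnt7b* and *Wnt3* followed *Wnt6* and *Wnt4*, each overlapping its neighbour. At P0 *Wnt7b* and *Wnt4* overlapped after *Wnt6*. In dermal-like cells *Wnt5a* led at E13.5 and E16.5 with 54.9% and 42.5% of the summed UMIs of the 10 ligands, whereas at P0 *Wnt6* (34.9 CPM) and *Wnt5a* (30.1 CPM) overlapped. The 10 ligands together summed to 579, 704 and 395 CPM in epithelial-like cells and to 317, 168 and 102 CPM in dermal-like cells. Of the epithelial-like sum, *Wnt6* made up 51.3%, 40.0% and 37.5%.

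Counted over the whole library, the source of a ligand also depended on how many cells of each class were captured. At E13.5 dermal-like cells were 39.4% of the cells and gave 65.4% of all *Wnt5a* UMIs, 67.0% of *Wnt2*, 65.7% of *Wnt11* and 52.6% of *Wnt4*. Epithelial-like cells were 3.47% of the cells and gave 53.8% of the 26 *Wnt10b* UMIs, 43.3% of *Wnt7b*, 42.5% of *Wnt3*, 35.5% of *Wnt6* and 33.7% of *Wnt10a*. At E16.5 they were 16.8% of the cells and gave between 61.2% (*Wnt4*) and 86.0% (*Wnt3*) of each of these 5 ligands and *Wnt4*. At P0 they were 29.1% of the cells and gave between 71.2% (*Wnt6*) and 89.8% (*Wnt3*) of the same ligands. The share of *Wnt4* from epithelial-like cells was 10.5%, 61.2% and 85.6% across the 3 stages. Mixed epithelial cells were left out of these shares. They numbered 313 beside 207 epithelial-like cells at E13.5, but 81 beside 873 at E16.5 and 107 beside 1472 at P0. Stage, library, depth, dissociation and the number of cells captured per class cannot be told apart here.

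**Figure D3:**
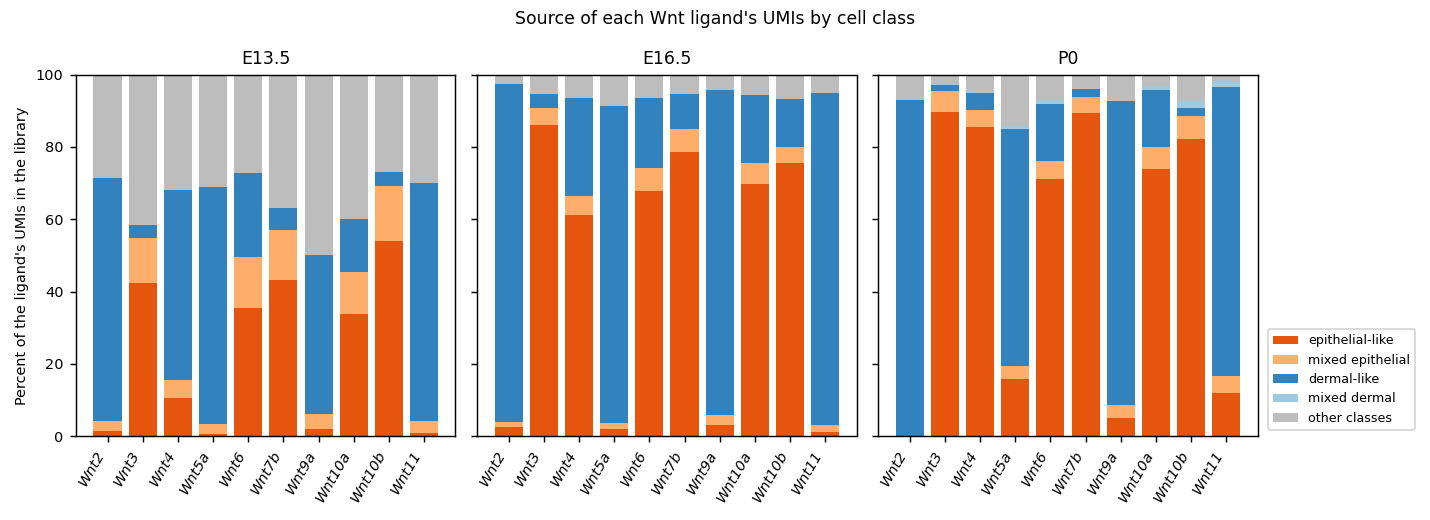
Percent of each ligand's UMIs in the library (y axis) that came from epithelial-like, mixed epithelial, dermal-like, mixed dermal and all other cells, at E13.5, E16.5 and P0. Epithelial-like cells gave 10.5% of *Wnt4* at E13.5 and 85.6% at P0, and dermal-like cells gave the greatest part of *Wnt2*, *Wnt5a* and *Wnt11* at each stage.

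Outside these compartments, *Wnt5a* at E13.5 lay between 51.5 CPM (muscle-like) and 97.2 CPM (erythroid-like) in every other named class but the epithelial-like. The dermal markers in those classes stood at 27.7% to 86.4% of their dermal-like level while *Wnt5a* stood at 29.6% to 55.8% of its own. In endothelial-like cells, for example, the markers stood at 30.6% and *Wnt5a* at 32.2%, and the part that dermal RNA had in these levels was not tested. At E16.5 and P0 pericyte-like cells held 62.8 CPM (52.5 to 74.6) and 55.4 CPM (44.9 to 67.8) of *Wnt5a*, which was 87.8% and 184% of the dermal-like level, while their dermal markers stood at 19.4% and 16.2%, and the part of dermal RNA was not tested here either. At P0 pericyte-like cells, 4.78% of the library, gave 11.5% of its *Wnt5a* UMIs.

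*Wnt6* was also seen in glia. In Schwann-like cells its level was 14.2 CPM at E13.5, 97.9 CPM (82.1 to 116) at E16.5 and 143 CPM (114 to 176) at P0, the last overlapping that of epithelial-like cells. At these later stages the epithelial markers of the class summed to 2219 and 1211 CPM, where epithelial-like cells had 13481 and 16875 CPM, and *Wnt6* was 34.7% and 96.3% of its epithelial-like level. *Wnt4* in the same class was 73.0 CPM (61.6 to 86.0), 94.3 CPM (78.8 to 112) and 8.39 CPM. Melanocyte-like cells at P0 held 82.9 CPM of *Wnt6*, beside epithelial markers at 33.4%, whose part was not tested. At E13.5 cartilage- or tendon-like cells held 61.1 CPM (52.9 to 70.3) of *Wnt6* with epithelial markers at 0.980%, and also the highest *Wnt9a* level of any class, 12.7 CPM (9.13 to 17.3). Neural-like cells at E13.5 held 17.6 CPM of *Wnt3* and 24.5 CPM of *Wnt7b*, from 62 and 86 UMIs, 45.2% and 37.1% of the epithelial-like levels, with epithelial markers at 3.17%. Muscle-like cells at E13.5 came after the epithelial and mixed epithelial cells in *Wnt10a*, at 7.14 CPM (5.12 to 9.68) with epithelial markers at 1.07%.

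The dermal compartment was then divided by markers into DC or DP cells (*Sox18*, *Sox2*, *Bmp3* and others), upper dermal, deep dermal (*Dlk1*, *Mfap5*, *Pi16* and others), adipocyte and unnamed cells, and cells that carried the markers of a pair of subclasses and were named jointly. At P0, 201 DC or DP cells held 224 CPM of *Wnt5a* (200 to 249) against 13.4 CPM in the other 2474 dermal-like cells, a difference of 3.32 log2 units (3.13 to 3.51). *Wnt10a* stood at 69.6 CPM (56.6 to 84.7) against 7.95 CPM, a difference of 2.15 (1.87 to 2.42). The other cells included 439 named jointly as DC or DP and upper dermal, which held 13.4 CPM of *Wnt5a* (9.30 to 18.8) and 15.8 CPM of *Wnt10a* (11.3 to 21.5). *Wnt5a* and *Wnt10a* were the 2 ligands called, where 8.46% of all genes were called in either direction. Neither was called with each cell assigned by its own marker score (0.28 and 0.49). *Wnt6* at 47.8 against 33.8 CPM and *Wnt11* at 14.1 against 9.77 CPM were not. *Wnt5a* UMIs were seen in 61.2% of DC or DP cells, or 41.3% after thinning, against 2.15% to 5.57% of thinned deep and upper dermal cells at similar median depths (6073 UMIs against 6602.5 and 5767.5).

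At E16.5 the contrast was smaller. The 573 DC or DP cells held 110 CPM of *Wnt5a* against 64.6 CPM (a difference of 0.69, 0.57 to 0.81) and 21.6 CPM of *Wnt10a* against 4.66 CPM (a difference of 1.11), and 1 ligand was called where 2.88% of all genes were. The 4 DC or DP sub-clusters were unlike each other. One of 210 cells, with all 12 markers at least 2-fold higher and led by *Bmp3*, *Sox18* and *Sox2*, held 224 CPM of *Wnt5a* (203 to 246) and 43.9 CPM of *Wnt10a* (35.0 to 54.3). The others held 49.6 to 53.3 CPM of *Wnt5a* and 6.49 to 22.9 CPM of *Wnt10a*, and 1 of them, of 167 cells, was led by histone and cell-cycle genes. With that sub-cluster counted among the other cells, *Wnt5a* differed by 1.05 and *Wnt10a* by 1.44, and both were called. With each cell assigned by its own marker score instead of its cluster, the differences were -0.26 and 0.21, and neither was called. With at least 2500 genes per cell *Wnt10a* was not called either.

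At P0 the 3 DC or DP sub-clusters differed in their levels of both ligands. The one of 108 cells, led by *Plac8* and *Bmp3*, held *Wnt5a* at 213 CPM (181 to 249) and *Wnt10a* at 123 CPM (98.8 to 151). The one of 41 cells, with *Corin* and *Alpl* among its leading genes, held *Wnt5a* at 364 CPM (307 to 429) and *Wnt10a* at 22.8 CPM (10.4 to 43.2). The one of 52 cells, led by *Heyl* and *Pdlim3*, held *Wnt5a* at 60.9 CPM (36.1 to 96.3) and 0 UMIs of *Wnt10a*, where 3 UMIs would be 10.2 CPM. The intervals of *Wnt10a* in the first and of *Wnt5a* in each did not meet those of the others. Under the assignment of each cell by its own marker score, the P0 differences between DC or DP and other dermal-like cells were 0.28 for *Wnt5a* and 0.49 for *Wnt10a*, and neither was called.

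*Wnt2* was higher in deep dermal cells than in the other dermal-like cells. At E13.5 it stood at 76.9 CPM (68.9 to 85.6) in 426 deep dermal cells and 16.9 CPM in the other dermal-like cells, a difference of 1.69 (1.52 to 1.87). No cell of that stage was named deep dermal at Leiden resolution 0.5, so the difference could not be computed there. At E16.5 the levels were 45.5 CPM (39.0 to 52.9) and 1.20 CPM, a difference of 2.31 (2.12 to 2.49), and at P0 7.98 CPM (5.75 to 10.8) and 0.870 CPM, a difference of 0.73 (0.52 to 0.94). A single sub-cluster of 34 cells at E16.5 gave 138 of the 171 deep dermal UMIs, at 328 CPM (276 to 388). It had all 8 deep dermal markers at least 2-fold higher and was led by *Ly6a* and *Mfap5*, with *Wnt2* itself among its leading genes. The other deep dermal sub-clusters of that stage, of 156 and 102 cells, held 17.3 and 2.40 CPM. A further 456 cells of that stage, named jointly as adipocyte and deep dermal and counted among the other cells, held 2.38 CPM (1.27 to 4.06). In DC or DP cells *Wnt2* had 2 UMIs at E16.5 and 1 at P0.

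*Wnt9a* was likewise higher in value in deep dermal cells, at 6.64 against 3.82 CPM, 12.5 against 3.13 CPM and 6.27 against 2.77 CPM at E13.5, E16.5 and P0, without reaching 2-fold on the scale with 10 added (0.27, 0.78 and 0.35). *Wnt11* was lower in value in deep than in other dermal-like cells, at 19.0 against 28.4 CPM, 8.52 against 12.2 CPM and 2.09 against 13.4 CPM, and was called at none of the stages. At P0 *Wnt11* stood at 13.9 CPM (11.4 to 16.8) in 1202 upper dermal cells and 14.1 CPM in DC or DP cells. *Wnt6* in the P0 dermis was 45.0 CPM in upper and 22.8 CPM (18.9 to 27.3) in deep dermal cells. The difference of *Wnt6* between deep and other dermal-like cells, -0.61, was not called, and it was 0.03 with at least 2500 genes per cell.

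**Figure D4:**
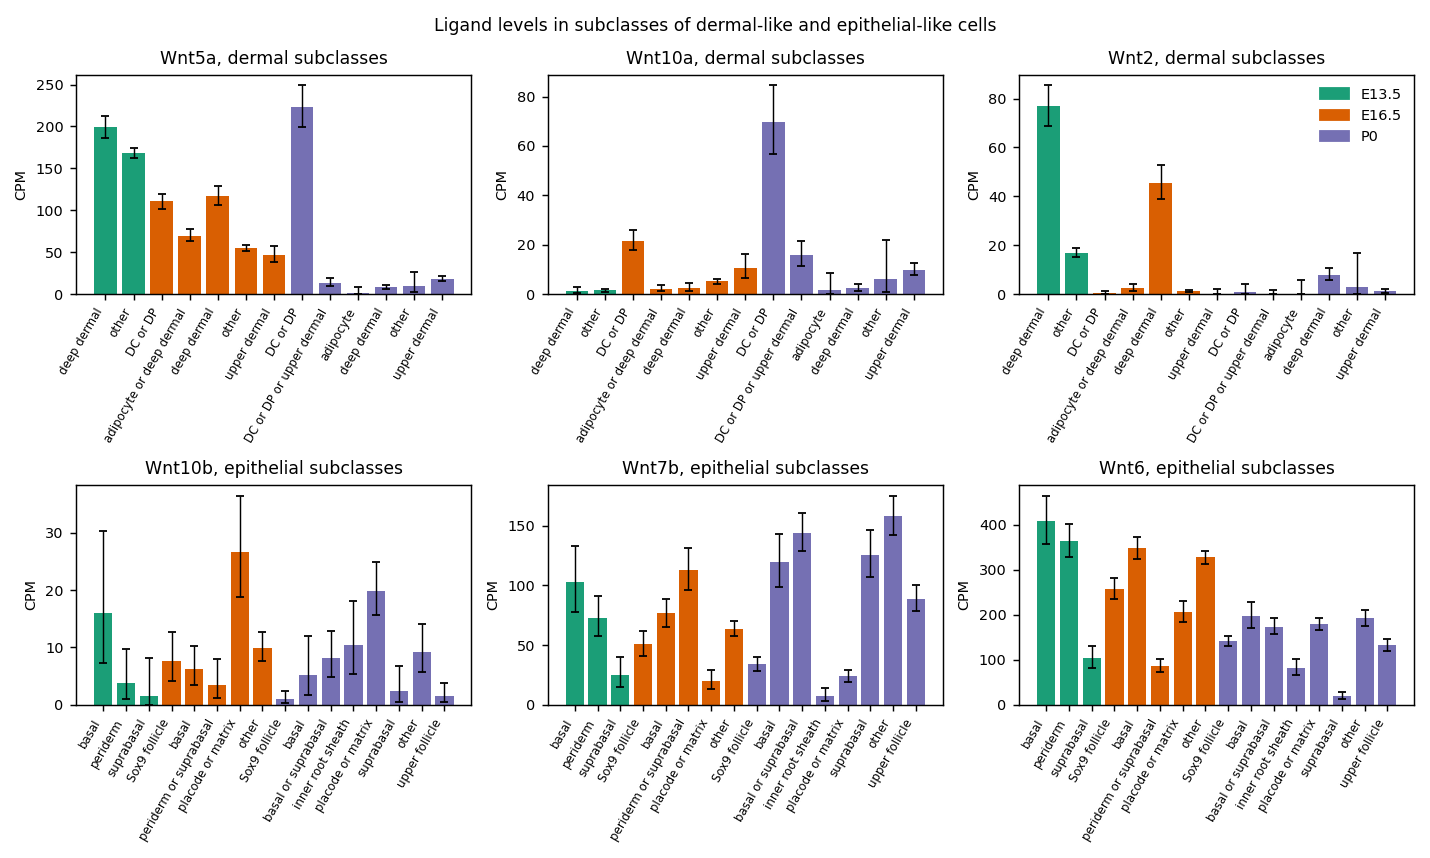
Level (CPM, bars from 0, with 95% Poisson intervals) of *Wnt5a*, *Wnt10a* and *Wnt2* in the dermal subclasses and of *Wnt10b*, *Wnt7b* and *Wnt6* in the epithelial subclasses, coloured by stage. *Wnt5a* and *Wnt10a* are highest at P0 in DC or DP cells (224 and 69.6 CPM), *Wnt2* in deep dermal cells at each stage, and *Wnt10b* in placode or matrix cells at E16.5 and P0 (26.6 and 19.9 CPM).

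Some epithelial-like cells stayed unnamed, 378 at E16.5 and 206 at P0. They gave 5051 of the 9495 and 1772 of the 7511 ligand UMIs of epithelial-like cells. Their summed ligand level was 781 and 780 CPM, beside 896 and 440 CPM in basal cells. Unnamed cells were counted among the other epithelial-like cells below. The matrix is the growing base of the follicle. Placode or matrix cells (*Shh*, *Lhx2*, *Hoxc13* and others) differed from the other epithelial-like cells in the same 3 ligands at both stages where they were found. *Wnt10b* was higher, at 26.6 CPM (18.8 to 36.5) against 8.04 CPM in the other epithelial-like cells at E16.5 and 19.9 CPM (15.7 to 24.9) against 4.47 CPM at P0, differences of 1.02 and 1.05. *Wnt4* was lower, at 90.9 against 222 CPM and 22.8 against 88.1 CPM (-1.20 and -1.58). *Wnt7b* was also lower, at 20.3 against 69.9 CPM and 23.8 against 91.1 CPM (-1.40 and -1.58). These 3 ligands were called at each stage, where 2.73% of all genes were at E16.5 and 3.37% at P0. *Wnt3* was higher in value without being called, at 97.9 against 55.9 CPM (0.71, 0.47 to 0.95) and 30.4 against 20.1 CPM (0.43, 0.20 to 0.66). The P0 placode or matrix cells gave 76 of the 144 epithelial-like *Wnt10b* UMIs. The difference of *Wnt10b* was past 2-fold by little, and was 0.86 at the lowest among the alternatives at E16.5 and 0.81 at P0. That of *Wnt4* at E16.5 was -0.99 at Leiden resolution 2 and -0.85 with each cell assigned by its own marker score, and was not called under either.

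*Sox9* follicle cells, a group with markers of the outer follicle and stem cell precursors, held less *Wnt3*, *Wnt4*, *Wnt10a* and *Wnt7b* than the other epithelial-like cells at P0. *Wnt3* stood at 2.41 against 27.6 CPM in the other epithelial-like cells, *Wnt4* at 14.0 against 92.0 CPM, *Wnt10a* at 18.3 against 66.6 CPM and *Wnt7b* at 34.0 against 89.8 CPM, differences of -1.60, -2.09, -1.44 and -1.18. That of *Wnt7b* was within 2-fold at resolution 0.5 (-0.82), with at least 2500 genes per cell (-0.81) and with each cell assigned by its own marker score (-0.96). *Wnt6*, at 141 against 149.9 CPM, was alike in value. Over the 7 ligands compared the median difference was -1.18, beside 0.04 over all genes. The share of all genes called was not counted for this comparison. Summed over the ligands, the P0 level was 223 CPM (208 to 237) in *Sox9* follicle and 228 CPM (202 to 257) in inner root sheath cells. It was 294 CPM in suprabasal, 316 CPM in upper follicle and 320 CPM in placode or matrix cells. Higher sums were those of basal (440 CPM), jointly named basal and suprabasal (690 CPM) and unnamed cells (780 CPM). All but the *Sox9* follicle cells were pooled as the other cells, so a low summed level was not particular to this group. In the 108 *Sox9* follicle cells of E16.5, *Wnt3* stood at 27.7 against 65.5 CPM (at the 2-fold limit, and -0.54 at the nearest to 0 among the alternatives), *Wnt10a* at 38.6 against 78.9 CPM (-0.87) and *Wnt4* at 153 against 217 CPM (-0.47).

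The inner root sheath (*Krt25*, *Krt27*, *Krt71* and others), a sleeve around the growing hair that was found at P0, held more *Wnt5a* than the other epithelial-like cells as clustered. Its 110 cells had 44.9 CPM (33.6 to 58.9) against 4.31 CPM in the other epithelial-like cells, a difference of 1.94 (1.59 to 2.28). The dermal markers in this sub-cluster stood at 5.74% of the dermal-like level. *Wnt7b* was 6.92 against 82.2 CPM there (-2.45, -2.83 to -1.96), the lowest level of this ligand in any epithelial subclass at P0. With each cell assigned by its own marker score these differences were 0.85 and -0.82. A *Sox9* follicle sub-cluster of 89 cells also held *Wnt5a*, at 30.7 CPM.

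In the interfollicular epidermis, basal cells attach to the basement membrane and suprabasal cells above them differentiate. At E13.5 *Wnt3* was 133 CPM (105 to 167) in 60 basal and 17.6 CPM (9.07 to 30.7) in 61 suprabasal cells, *Wnt6* 408 (357 to 464) and 104 CPM (81.1 to 131), and *Wnt7b* 103 (78.1 to 133) and 24.9 CPM (14.5 to 39.8). The differences were -2.38, -1.88 and -1.69, and these 3 of the 4 ligands with enough UMIs were called, where 7.22% of all genes were. *Wnt4* stood at 151 and 74.6 CPM (-0.93). In periderm, the temporary outer layer of the fetal epidermis, *Wnt6* was 363 CPM (328 to 401) and *Wnt7b* 72.7 CPM (57.3 to 90.8), with intervals that overlapped the basal ones, but *Wnt3* had 3 UMIs in 86 cells (2.83 CPM).

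At P0 the layers as clustered differed by 2-fold in 1 ligand of the 5 compared, but in 3 at either other resolution or with at least 2500 genes per cell. *Wnt6* stood at 197 CPM (170 to 227) in 112 basal and 18.5 CPM (11.9 to 27.5) in 98 suprabasal cells, a difference of -2.86 (-3.29 to -2.42), and it was the 1 ligand called where 16.6% of all genes were. *Wnt7b*, at 119 and 126 CPM (0.07, -0.25 to 0.40), was alike in value in both, and *Wnt4* stood at 48.3 and 86.4 CPM (0.73). The direction of *Wnt4* turned under those 3 alternatives, to -1.19 at resolution 0.5, -1.50 at resolution 2 and -1.47 with at least 2500 genes. A further 148 cells carried basal and suprabasal markers together and held 200 CPM of *Wnt4*, 144 CPM of *Wnt7b* and 122 CPM of *Wnt10a*. With these counted as basal, the difference of *Wnt10a* was -1.47 and was called as well, and that of *Wnt4* was -0.76. At E16.5, 91 cells with periderm and suprabasal markers held 86.1 CPM of *Wnt6* against 306 CPM in the other epithelial-like cells (-1.72, -1.95 to -1.49) and 113 CPM of *Wnt7b* against 58.8 CPM (0.83, 0.61 to 1.06).

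The patterns were alike between some ligands. Over the 24 class-by-stage groups of at least 50 cells, the Pearson correlation of log2(CPM + 10) was 0.90 between *Wnt7b* and *Wnt10b*, 0.89 between *Wnt2* and *Wnt11*, 0.87 between *Wnt3* and *Wnt7b* and between *Wnt10a* and *Wnt10b*, and 0.85 between *Wnt6* and *Wnt10b*. The neighbours *Wnt6* and *Wnt10a* came below these pairs, at 0.83. The most opposed pair was *Wnt5a* and *Wnt10b*, at -0.61. These values describe groups that share libraries and depth, and they carry no test.

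Among the 15408 genes considered, those with the pattern most like each ligand over the same groups were, by Pearson r, *Veph1* for *Wnt2* (0.96), *Satb1* for *Wnt3* (0.94), *Bdh1* for *Wnt4* (0.86) and *Sulf1* for *Wnt5a* (0.94). They were *Arhgef19* for *Wnt6* (0.94), *Igsf9* for *Wnt7b* (0.95), *Gm3830* for *Wnt9a* (0.86), *Klf5* for *Wnt10a* (0.92), *Cds1* for *Wnt10b* (0.95) and *Inhba* for *Wnt11* (0.96). The 3 most similar genes also included *Itgbl1* for *Wnt2*, *Cxcl14* for *Wnt4*, *Hic1* for *Wnt5a*, *Fgfr3* for *Wnt7b* and *Ogn* for *Wnt11*.

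Of the 9 other Wnt genes in the table, 4 had enough UMIs to be compared at each stage. *Wnt7a* was called higher in epithelial-like cells at E13.5 (22.1 against 0.319 CPM) and E16.5 (13.1 against 0.189 CPM), *Wnt3a* at E16.5 (15.7 against 0.487 CPM), and *Wnt16* at E16.5 (79.0 against 2.00 CPM) and P0 (38.8 against 11.3 CPM), and none was called in the dermal direction. *Wnt5b*, the most dermal of them, stood at 3.03 against 13.8 CPM at E13.5.

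For secretion, *Wls* was present on both sides, at 249 and 195 CPM in epithelial-like and dermal-like cells at E13.5, 266 and 118 CPM at E16.5 and 184 and 451 CPM at P0. The side with more *Wls* was the epithelial one at the fetal stages and the dermal one at P0, with log2 differences of 0.33, 1.11 and -1.25. *Porcn* was low, between 1.73 and 6.26 CPM in both compartments.

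The 16 receptors divided as well, and 14, 14 and 15 of them were compared (medians 0.13, 0.11 and 0.18). Of these, 2, 2 and 3 were called in the epithelial direction and 4 in the dermal direction at each stage. Of all genes, 4.94%, 4.67% and 5.38% were called in the epithelial direction and 7.6%, 7.83% and 7.93% in the dermal direction. The same shares apply to the inhibitors and targets below. *Fzd6* and *Fzd10* led the epithelial side at E13.5, at 45.9 against 2.64 CPM and 56.8 against 15.6 CPM. *Ror2* led the dermal side at each stage, at 4.33 against 43.4 CPM at E13.5, followed by *Fzd1* (12.1 against 54.5 CPM) at E13.5, *Ptk7* at E16.5 (61.2 against 225 CPM) and *Fzd2* at P0 (34.5 against 114 CPM). *Ror2*, a *Wnt5a* receptor, lay in the compartment that also held more *Wnt5a*. *Lrp6* was alike in value in both, at 51.1 and 41.0 CPM at E13.5.

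Of the 16 genes listed as Wnt inhibitors, which include the membrane proteins *Apcdd1*, *Kremen1* and *Kremen2*, 14, 16 and 14 were compared, and 6, 5 and 7 were called higher in dermal-like cells and 2, 3 and 2 in epithelial-like cells (medians -0.38, -0.43 and -0.83). *Sfrp2*, a soluble Wnt-binding protein, stood at 29.9 against 319 CPM at E13.5, 7.34 against 147 CPM at E16.5 and 16.8 against 475 CPM at P0. *Sfrp1* came next at E13.5 (16.9 against 204 CPM), and *Wif1*, which binds Wnts directly, at E16.5 (30.5 against 318 CPM) and P0 (15.8 against 426 CPM). On the epithelial side *Kremen2*, a Dkk co-receptor, stood at 116 against 3.69 CPM, 188 against 4.52 CPM and 84.2 against 2.18 CPM. *Dkk4* accompanied it at E13.5 (26.9 against 0.365 CPM) and *Sostdc1* at E16.5 (368 against 45.9 CPM) and P0 (541 against 46.5 CPM).

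The 14 genes listed as targets of β-catenin signalling were split, with 2, 5 and 5 called in the epithelial direction and 5, 5 and 4 in the dermal direction (medians -0.75, -0.40 and 0.35). *Nkd1* and *Nkd2*, feedback inhibitors, were dermal at each stage, with *Nkd1* differences of -2.94, -3.31 and -2.77 log2 units. *Sp5* came next on the dermal side at E13.5 (5.20 against 78.5 CPM), but at P0 it was among the most epithelial (27.3 against 1.06 CPM). *Znrf3*, which removes Frizzled receptors, led the epithelial side at E16.5 and P0 (70.8 against 13.2 CPM and 77.4 against 12.4 CPM), with *Rnf43*, of the same function, leading at E13.5 (23.8 against 0.365 CPM) and *Edar* next at E16.5 (a log2 difference of 1.69). *Axin2* was alike in value at P0, at 23.2 and 25.1 CPM.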

How the data were processed

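The deposited table holds, as found from its values, the natural log of 1 plus UMIs scaled to 10000 per cell. It covers 19165 genes and 16235 cells of E13.5, E16.5 and P0 skin. The authors aligned to mm10 and counted with Cell Ranger 2.2.0, per the submitters' processing notes, and filtered in Seurat. All 16235 cells passed the stated gene filter, more cells than the study describes. UMIs were recovered as whole numbers for 48197283 of 48197283 values above 0 (tolerance 0.001), so depth is known. 44, 41 and 32 barcodes were shared between pairs of libraries.

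Each library was analysed alone with scanpy 1.11.5 (2000 variable genes without the 67 listed Wnt pathway genes, 30 components, 15 neighbours, Leiden resolution 1), and dermal-like and epithelial-like cells were clustered again. Clusters were named "-like" from markers with at least 3 at 2-fold or more, by a mean log2 difference at least 0.3 above the next list, or jointly. Sub-clusters at 25% or more of the other compartment's marker level, or led by its genes, were called mixed. Doublets were kept. UMIs were summed per class and given as CPM. The calculation was checked on simulated Poisson counts of pooled groups. These held no variation between cells or animals and no error of naming, so the check does not cover those. No test across samples was possible with 1 library per stage. The members, gene lists and markers were chosen with earlier results of these data known, and the naming margins and mixed limit after clusters had been seen. Named genes were the 10 ligands, the 2 most extreme genes of each pathway list in each direction and the 3 genes most similar to each ligand, and *Lrp6* and *Axin2*, named after their values were seen; comparisons of deep dermal, upper dermal, *Sox9* follicle, inner root sheath and periderm cells were also added then. Alternatives were Leiden resolutions of 0.5 and 2, Scrublet doublets left out, cells with 2500 genes or more, equal weight per cell, each cell assigned alone, 1 added to CPM and no UMI minimum, and, added after seeing the data, mixed cells kept and 2 other definitions of subclasses.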

Additional observations from a re-analysis of the deposited data

Results flagged for a closer look

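In 3 cases a ligand lay on opposite sides of a subclass comparison at different stages, and none of these differences between stages was tested. *Wnt5a*, deep dermal minus other dermal-like cells, was 0.23 log2 units at E13.5 and 0.74 at E16.5, but -1.42 at P0, where the DC or DP cells, which held 318 of the 539 dermal-like *Wnt5a* UMIs, were among the other cells. Its E13.5 value was -0.06 at resolution 2, and its P0 value, always below 0, was -0.61 at the nearest to 0 and lay within 2-fold under 2 alternatives. *Wnt4*, suprabasal minus basal, was -0.93 at E13.5 and 0.73 at P0. The P0 value was below 0 under 5 of the alternatives. *Wnt6*, placode or matrix minus other epithelial-like cells, was -0.48 at E16.5 and 0.33 at P0. The stages differ in library, depth and dissociation, which cannot be told apart from age.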

How the results depend on the processing

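All 33 called differences of the ligands kept their direction under every alternative in which they could be computed, and 23 of them stayed called in each. With 1 added to CPM or no UMI minimum no direction could turn, because the cells and counts were the same. *Wnt3*, suprabasal minus basal at E13.5, was not called with each cell assigned alone, although its differences over the alternatives ran from -3.65 to -2.03. The counts of called ligands moved by over 1.5 times, or to or from 0, as follows. Dermal-like, E16.5 (2 as reported), gave 1 with each cell assigned alone or with mixed cells kept and 4 with 1 added to CPM. Dermal-like, P0 (1), gave 0 with each cell assigned alone and 4 with 1 added. DC or DP at E16.5 (1) gave 2 at resolution 0.5, with 1 added or with sub-clusters that had a leading marker, and 0 with at least 2500 genes per cell or each cell assigned alone; at P0 (2) the last gave 0. Placode or matrix at E16.5 (3) gave 1 at resolution 2 or with each cell assigned alone. Suprabasal against basal at E13.5 (3) gave 5 with no UMI minimum, and at P0 (1) gave 3 at either other resolution or with at least 2500 genes per cell, and 2 with each cell assigned alone or with jointly named cells counted as basal. *Wnt4* between these layers at P0 was then lower rather than higher in suprabasal cells: -1.19 at resolution 0.5, -1.50 at resolution 2, -1.47 with at least 2500 genes, -0.49 with each cell assigned alone and -0.76 with jointly named cells as basal. In DC or DP cells at E16.5 *Wnt5a* was -0.26 with each cell assigned alone. The subclass comparisons added after seeing the data held 13 differences past 2-fold. Of these, 13 kept their direction and 7 stayed past 2-fold under every alternative in which they could be computed. The share of all genes called was not counted for these added comparisons, so their number of called ligands has no general rate beside it. Smaller moves included the loss of *Wnt11* on the dermal side at E13.5 (-0.99) with mixed cells kept, so that 2 of 3 were called, and of *Wnt10b* in placode or matrix at P0 (0.81) with each cell assigned alone. The causes of these moves were not tested. Scrublet marked 0 cells at E13.5, so that alternative was not run there, and layers could not be compared at E13.5 at resolution 0.5 or at P0 without doublets. No cell was named deep dermal at E13.5 at resolution 0.5. At E16.5 no cell was named periderm or suprabasal jointly with at least 2500 genes per cell or with each cell assigned alone. Upper dermal cells of E16.5 were not found at resolution 0.5 or with at least 2500 genes per cell. No paired analysis was possible because each stage is 1 library.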
